A study of Mus musculus with 23 samples.

Results

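The 10 genes described here make or regulate new fatty acids: *Acly*, *Acaca*, *Fasn*, *Elovl6*, *Scd1*, *Scd2*, *Me1*, *Srebf1*, *Pparg* and *Thrsp*. They were listed by name, and every probe carrying one of these names in the scanner files was taken, which gave 21 of the 56605 probes on the array. Of these, 18 were among the 37161 probes of the deposited log2 table, so that all 10 genes had a value, out of 17574 gene symbols in that table. Each gene is represented by its brightest probe, with its other probes given beside it.

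The cell makes fatty acids in the cytosol from acetyl-CoA, which ATP citrate lyase releases from citrate. Acetyl-CoA carboxylase turns it into malonyl-CoA, fatty acid synthase joins these units into palmitate with NADPH as reductant, and elongases and stearoyl-CoA desaturases lengthen and desaturate the product. The transcription factor SREBP-1, encoded by *Srebf1*, switches on most of these enzymes, while its relative SREBP-2 acts mainly on cholesterol synthesis. In the small intestine the pathway supplies membrane lipid and triglyceride for lipoproteins. The pregnane X receptor (PXR) is a nuclear receptor for foreign compounds that also affects lipid metabolism in the liver.

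The profiles came from the ileum of male mice on the C57BL/6J background, 1 array per mouse. WT mice were purchased at 6 weeks of age, and mice lacking PXR (Pxr-/-, backcrossed) came from a colony kept in house for 10 years, so genotype and breeding origin cannot be told apart. After 2 weeks of acclimatization, mice received on 4 days an intraperitoneal injection of pregnenolone 16α-carbonitrile (PCN, 100 mg/kg), a steroid ligand of rodent PXR, in corn oil, or corn oil alone (CONT). All had free access to food and were killed at ZT6, which was 6 h after the last injection. The study describes mice at that time of day as semi-fasted. Of the 23 arrays, WT PCN has 5 and the WT CONT, Pxr-/- CONT and Pxr-/- PCN groups have 6 each, spread over 2 wash batches and 8 slides. Each group has 3 arrays in each wash batch, except WT PCN with 2 in batch 1. Values within a batch therefore rest on 2 or 3 mice per group.

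The median spot signal of an array was 74 to 106.5 over a background of 19 to 28.5, and 62.7% to 68.8% of spots were well above background. PCN raised the PXR target *Cyp3a11* by 3.53 on the log2 scale in WT (SE 0.32, adjusted p 1.49e-06), against -0.05 in Pxr-/- (SE 0.31, adjusted p 0.952). *Cyp2b10* rose by 4.60 in WT (adjusted p 1.10e-07), against 0.71 in Pxr-/- (adjusted p 0.252), and *Cyp2c55* rose by 3.51 in WT (adjusted p 0.000149) and by 1.58 in Pxr-/- (adjusted p 0.0484). The probe of the deleted gene, *Nr1i2*, read 11.91 to 12.28 in WT CONT, 11.67 to 12.44 in WT PCN, 11.34 to 12.37 in Pxr-/- CONT and 11.47 to 11.99 in Pxr-/- PCN. These ranges overlapped, and whether the probe lies in the deleted part was not analysed, so it does not check the genotype labels. Of the 8 markers of ileal epithelium, all were well above background on all 23 arrays. Their summed log2 signal was 19.71 to 19.86 in WT CONT and 19.54 to 19.85 in WT PCN. In Pxr-/- it was 19.75 to 19.98 with oil and 19.59 to 19.77 with PCN. With PCN, 6 of the 8 were lower in each genotype (53% of all probes were lower in Pxr-/-, and 45.1% higher in WT). The part of epithelial content in the values below was not tested.

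Each probe is an oligonucleotide of 60 bases. The first 30 bases of the brightest probes are shown, as the array files give them 5′ to 3′, for the genes on which the results turn. *Elovl6* was read on chromosome 3 (129337756 to 129337815, plus strand, transcript NM_130450), *Scd2* on chromosome 19 (44381024 to 44381083, plus strand, NM_009128), *Scd1* on the same chromosome (44469387 to 44469446, minus strand, NM_009127), *Fasn* on chromosome 11 (120668460 to 120668519, minus strand, NM_007988) and *Pparg* on chromosome 6 (115440213 to 115440272, plus strand, NM_011146). The array's own annotation gives these positions on build mm9, and their place relative to exons was not analysed here. The longest run shared by the *Scd1* and *Scd2* probes was 6 bases.
Elovl6: atttgaccaaatcagaagagagagagaacc
Scd2: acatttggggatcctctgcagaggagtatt
Scd1: actcctgggctaagtatctgacagtctcac
Fasn: gcttgggttttgacttttctgcagctgtca
Pparg: gcaggaaagtcccacccgctgacaacgtgt

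The promoters of *Fasn* and *Elovl6* are shown because these genes passed the test in opposite genotypes, as described further on. Both are the 250 bases before the start site in RefSeq on build GRCm38.p6, that of *Fasn* at chr11:120824548-120824797 on the minus strand and that of *Elovl6* at chr3:129532136-129532385 on the plus strand, and capitals mark CCAAT boxes on either strand.
Fasn promoter: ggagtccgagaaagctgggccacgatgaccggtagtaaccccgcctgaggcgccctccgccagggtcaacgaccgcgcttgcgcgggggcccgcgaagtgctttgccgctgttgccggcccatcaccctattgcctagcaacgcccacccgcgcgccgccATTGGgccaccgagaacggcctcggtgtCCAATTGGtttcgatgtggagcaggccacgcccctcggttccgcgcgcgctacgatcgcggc
Elovl6 promoter: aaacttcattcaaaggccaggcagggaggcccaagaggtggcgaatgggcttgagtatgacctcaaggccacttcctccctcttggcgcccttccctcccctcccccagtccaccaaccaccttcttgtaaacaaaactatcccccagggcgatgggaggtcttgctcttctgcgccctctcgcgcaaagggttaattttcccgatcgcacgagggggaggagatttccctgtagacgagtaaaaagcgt

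RefSeq promoters were given for 8 of the 10 genes, 13 promoters in all. In the 250 bases before and 50 after the start site, the letters CCAAT, on either strand, occurred 3 times for *Fasn*, 2 of these matches overlapping in the run CCAATTGG, and 0 times for *Elovl6*. They also occurred for *Acly*, *Me1*, *Srebf1*, *Pparg* and *Thrsp*, and in 37.4% of the 32851 promoters of the table. The E-box CACGTG (7.15% of all promoters), the SREBP site TCACNCCAC (1.24%) and the direct repeats AGGTCANNNAGGTCA (0.00609%) and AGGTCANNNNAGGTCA (0.0152%) were found in 0 of the 13 promoters. An absent match says only that these letters were not in this window.

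The first question was whether PCN changed these genes in mice with PXR, and the second whether it did so in mice without it. In WT, PCN raised *Pparg* and *Elovl6*, and the other 8 genes did not pass the test. In Pxr-/-, PCN lowered *Fasn*, and 8 of the 10 genes had a value below that of the controls, as did 53% of all probes. A probe passed the test at an adjusted p of at most 0.05 over all 37161 probes, and was called when its change also exceeded 1.5-fold. In WT, 1 of the 10 genes was called, against 0.692% of all probes, and 2 passed the test, against 1.31%. In Pxr-/-, 0 were called (0.947% of all probes), 1 passed the test (3.7%) and 5 had an unadjusted limma p of at most 0.05, all of them lower (10.7% of all probes were lower at that p). The median change over the 10 genes was 0.06 in WT and -0.23 in Pxr-/-, and over all probes it was -0.01 in each. Signal in bulk tissue does not tell apart fewer cells of a type from less RNA per cell.

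**Figure D1:**
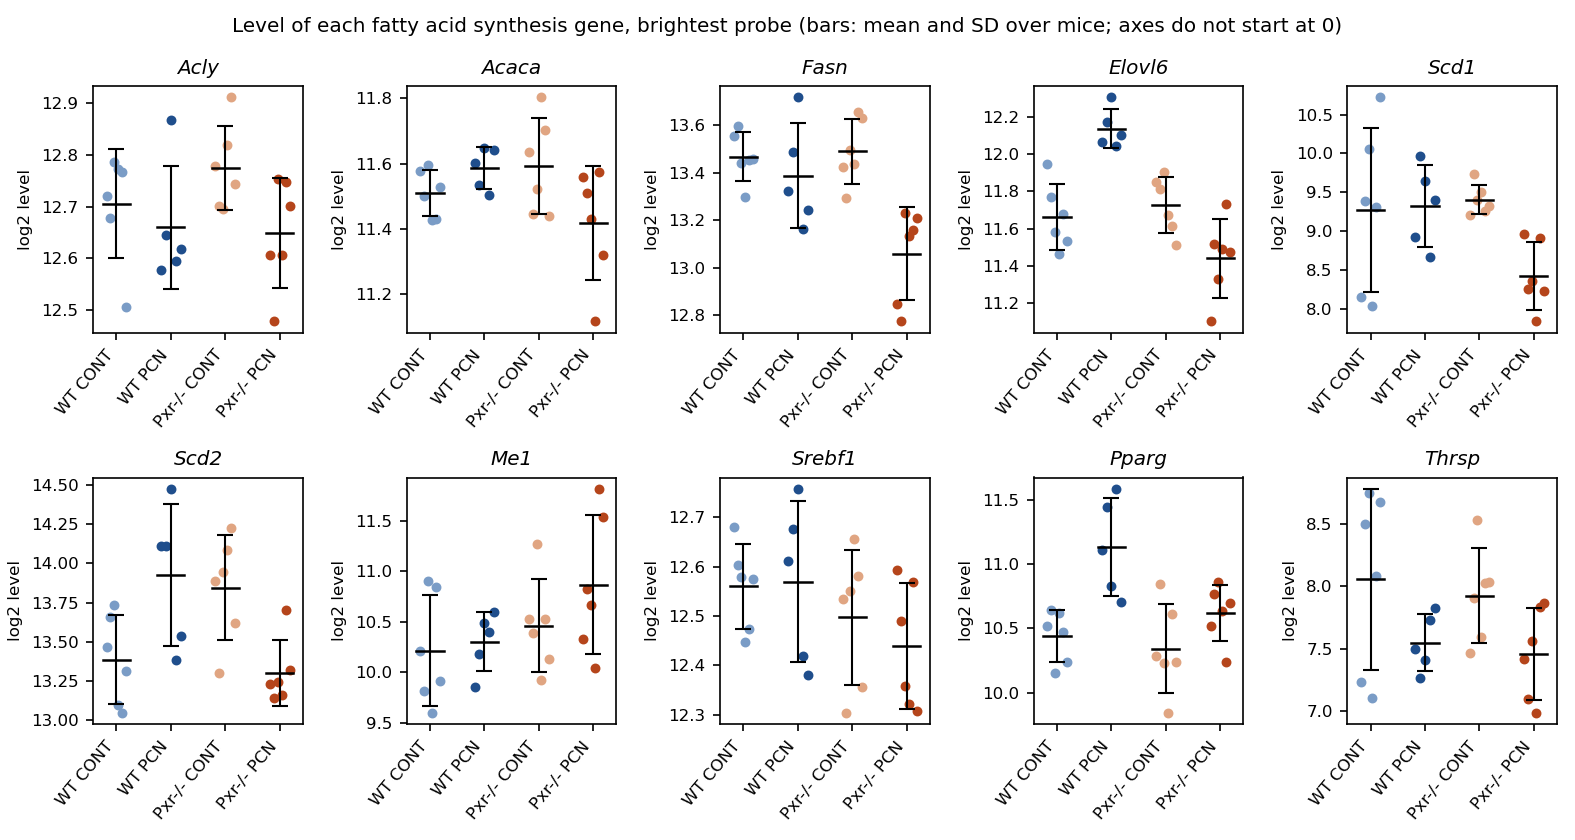
Log2 level of the brightest probe of each of the 10 genes in the 4 groups, with 1 point per mouse and bars for the mean and SD. The 5 WT PCN points of Elovl6, between 12.04 and 12.30, lie above all points of the other groups, and the 6 Pxr-/- PCN points of Fasn, between 12.77 and 13.23, lie below those of the Pxr-/- controls.

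*Acly*, *Acaca* and *Fasn* encode the enzymes from citrate to palmitate. *Fasn*, fatty acid synthase, read 13.30 to 13.60 in WT CONT (median 13.46) and 13.32, 13.49, 13.72, 13.16 and 13.24 in the 5 WT PCN mice. It read 13.29 to 13.66 (median 13.47) in Pxr-/- CONT and 12.77 to 13.23 (median 13.15) in Pxr-/- PCN. The WT groups overlapped, whereas the 6 Pxr-/- PCN mice were all lower than the 6 Pxr-/- controls. Ranges that did not overlap were found for 2.67% of all probes in that comparison. With PCN in Pxr-/-, *Fasn* fell by 25.8% (log2 change -0.43, SE 0.10, adjusted p 0.0183), which is under the 1.5-fold limit. The change was -0.42 within wash batch 1 and -0.44 within wash batch 2, and the adjusted p was 0.0516 without Pxr-/- PCN replicate 1. In WT the change was -0.08 (SE 0.10, adjusted p 0.837), and the difference between the PCN effects of the genotypes, the interaction, was -0.35 (SE 0.14, unadjusted limma p 0.0224, adjusted p 1.00). *Fasn* therefore passed the test in Pxr-/- and not in WT, without a difference between genotypes that passed.

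*Acaca*, acetyl-CoA carboxylase 1, had 7 probes, of which 6 were in the table. In WT the brightest read 11.51 ± 0.07 (SD, n = 6) with oil and 11.59 ± 0.06 (SD, n = 5) with PCN, and in Pxr-/- 11.59 ± 0.15 (SD, n = 6) with oil and 11.42 ± 0.17 (SD, n = 6) with PCN. The log2 change with PCN was 0.08 in WT (SE 0.08, adjusted p 0.794) and -0.17 in Pxr-/- (SE 0.08, adjusted p 0.224), so neither passed the test. All 6 probes had a lower mean with PCN in Pxr-/-, by 0.17 to 0.27 on the log2 scale, and the smallest adjusted p among them was 0.0584. In WT 4 of the 6 probes were higher and 2 lower. These probes read 1 gene in the same mice and are not replicates.

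*Acly*, ATP citrate lyase, read 12.51 to 12.79 in WT CONT, 12.58 to 12.87 in WT PCN, 12.70 to 12.91 in Pxr-/- CONT and 12.48 to 12.75 in Pxr-/- PCN. All groups overlapped. Its log2 change was -0.05 in WT (SE 0.07, adjusted p 0.879) and -0.13 in Pxr-/- (SE 0.07, adjusted p 0.314), where the mean of its dimmer probe differed by -0.18 (adjusted p 0.398).

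The clearest difference between the genotypes was in *Elovl6*, the elongase that turns palmitate into stearate. It read 11.47 to 11.95 in WT CONT (median 11.63), and 12.06, 12.17, 12.30, 12.04 and 12.10 in the 5 WT PCN mice. In Pxr-/- CONT it read 11.51 to 11.90 (median 11.74), and in Pxr-/- PCN 11.10 to 11.73 (median 11.48). All 5 WT PCN mice lay above every mouse of the other groups, whereas the 2 control groups and Pxr-/- PCN overlapped. Ranges that did not overlap were found for 2.7% of all probes for PCN in WT.

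PCN raised *Elovl6* in WT by 39.1% (log2 change 0.48, SE 0.10, adjusted p 0.0175). In Pxr-/- the change was -0.29 (SE 0.10, unadjusted limma p 0.00772, adjusted p 0.102), with 5 of 6 PCN mice below the control mean. The interaction was -0.76 (SE 0.14, adjusted p 0.0336), a 1.70-fold difference between the PCN effects, and it was the only one of the 10 called, against 0.078% of all probes. Within wash batches 1 and 2 the change was 0.48 and 0.47 in WT, -0.20 and -0.37 in Pxr-/-, and the interaction -0.69 and -0.84. Without PCN the genotypes differed by 0.06 (SE 0.10, adjusted p 0.936), and under PCN *Elovl6* was 1.62-fold lower in Pxr-/- than in WT (log2 -0.70, SE 0.10, adjusted p 0.000498). That difference under PCN was again the only one called among the 10 genes, against 0.366% of all probes. It was called without any single array (adjusted p 0.000111 to 0.00366).

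The interaction of *Elovl6* was nearer the threshold. Its size lay between -0.83 and -0.69 when 1 array was left out, with adjusted p from 0.00835 to 0.0959. It no longer passed without WT CONT replicates 3, 4, 5 or 6, WT PCN replicates 2, 3 or 5, Pxr-/- CONT replicates 1, 2 or 3, or Pxr-/- PCN replicates 1, 2, 3 or 6. The rise in WT had an adjusted p of 0.0504 without WT PCN replicate 2 and 0.0541 without WT PCN replicate 3. In these 2 arrays the log2 sum of 8 B cell markers was 13.68 and 13.70, against 10.95 to 11.26 in the other WT PCN arrays and 10.70 to 11.18 in WT CONT. The sum was 10.56 to 11.12 in Pxr-/- CONT and 10.65 to 12.27 in Pxr-/- PCN. Pxr-/- PCN replicate 1, with the sum of 12.27, had the lowest *Elovl6* of its group (11.10). The change of *Elovl6* in WT was 0.46 without WT PCN replicate 2 and 0.43 without WT PCN replicate 3. Each of these fits kept the other of the 2 arrays, and the part of B cells in the result was not tested.

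*Scd2*, a stearoyl-CoA desaturase, moved in the same directions as *Elovl6* with larger spread. It read 13.05 to 13.73 in WT CONT (median 13.39), and 14.11, 14.11, 14.48, 13.39 and 13.53 in the 5 WT PCN mice. It read 13.30 to 14.23 in Pxr-/- CONT (median 13.92) and 13.14 to 13.70 in Pxr-/- PCN (median 13.24). In WT 3 of the 5 PCN mice were above all controls, in Pxr-/- 4 of the 6 were below all controls, and the ranges overlapped in both genotypes. The log2 change was 0.54 in WT (SE 0.19, unadjusted limma p 0.00839, adjusted p 0.198) and -0.54 in Pxr-/- (SE 0.18, unadjusted limma p 0.00575, adjusted p 0.0873). The interaction was -1.09 (SE 0.26, unadjusted limma p 0.000364, adjusted p 0.196), and -1.09 and -1.08 within the wash batches. None of these passed over all probes. Leaving out 1 array changed this in 2 cases: the interaction had an adjusted p of 0.0498 without WT PCN replicate 4 (-1.25), and the change in Pxr-/- one of 0.0402 without Pxr-/- CONT replicate 2 (-0.66).

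*Scd2* also started from different means. Without PCN it was 0.46 higher on the log2 scale in Pxr-/- than in WT (SE 0.18, adjusted p 0.410), and under PCN 0.63 lower (SE 0.19, adjusted p 0.210). By mean, the order was WT PCN 13.93, Pxr-/- CONT 13.85, WT CONT 13.39 and Pxr-/- PCN 13.30. All of these groups overlapped with their neighbours in that order.

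**Figure D2:**
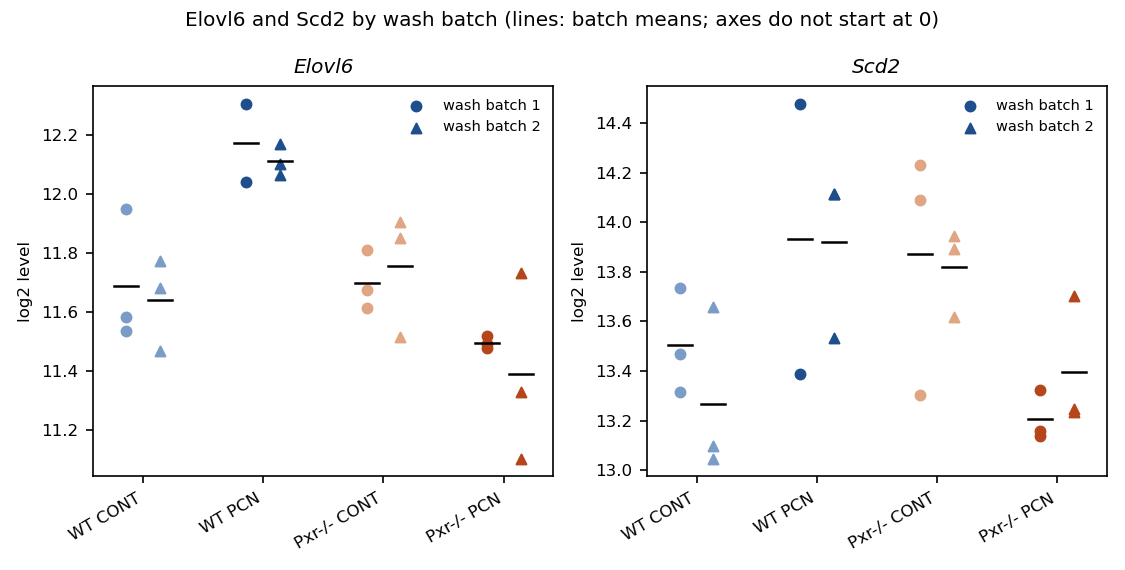
Log2 level of Elovl6 and Scd2 in the 4 groups, with wash batch 1 as circles and wash batch 2 as triangles, 1 point per mouse, and lines at the mean of each batch. In both batches the mean of either gene is higher with PCN in WT and lower with PCN in Pxr-/-.

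*Scd1*, the other stearoyl-CoA desaturase of the list, differed from *Scd2* in WT. It read 8.04 to 10.72 in WT CONT (median 9.35), and 8.93, 9.97, 9.65, 8.67 and 9.41 in the 5 WT PCN mice. In Pxr-/- CONT it read 9.21 to 9.73 (median 9.37), and in Pxr-/- PCN 7.84 to 8.97 (median 8.31). The WT controls overlapped with every other group, whereas the 6 Pxr-/- PCN mice were all below the 6 Pxr-/- controls. Such a separation of the Pxr-/- groups was found for 2.67% of all probes. The log2 change was 0.05 in WT (SE 0.36, adjusted p 0.981) and -0.98 in Pxr-/- (SE 0.34, unadjusted limma p 0.00958, adjusted p 0.114), and the interaction was -1.03 (SE 0.50, adjusted p 1.00). In a fit of the 2 Pxr-/- groups alone the same change had an adjusted p of 0.0175. That fit leaves out the WT controls (SD 1.05, against 0.19 in Pxr-/- CONT), and the reason for the lower adjusted p was not tested. Within wash batches 1 and 2 the change was -1.39 and -0.57 in Pxr-/-, and -0.49 and 0.52 in WT. The second *Scd1* probe was well above background on 0 of 23 arrays.

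In the WT controls, *Scd1* and *Thrsp* were lowest where adipocyte markers were lowest. *Thrsp* encodes Spot 14, a protein tied to lipogenesis in fat and liver. WT CONT replicate 4 had the lowest summed adipocyte signal (12.95 on the log2 scale), the lowest *Scd1* (8.04) and the lowest *Thrsp* (7.11) of its group. Replicate 6 had the highest sum (15.43) and the highest *Scd1* (10.72), with *Thrsp* at 8.67. In WT PCN the order was not kept: replicate 4 had the highest sum (15.04) and the lowest *Scd1* (8.67). The sums were 13.40 to 14.22 in Pxr-/- CONT and 13.26 to 14.82 in Pxr-/- PCN, where *Scd1* did not overlap. Of the 12 adipocyte markers 11 were well above background on all arrays and none passed the test for PCN in either genotype. The part of adipose tissue in these values was not tested.

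**Figure D3:**
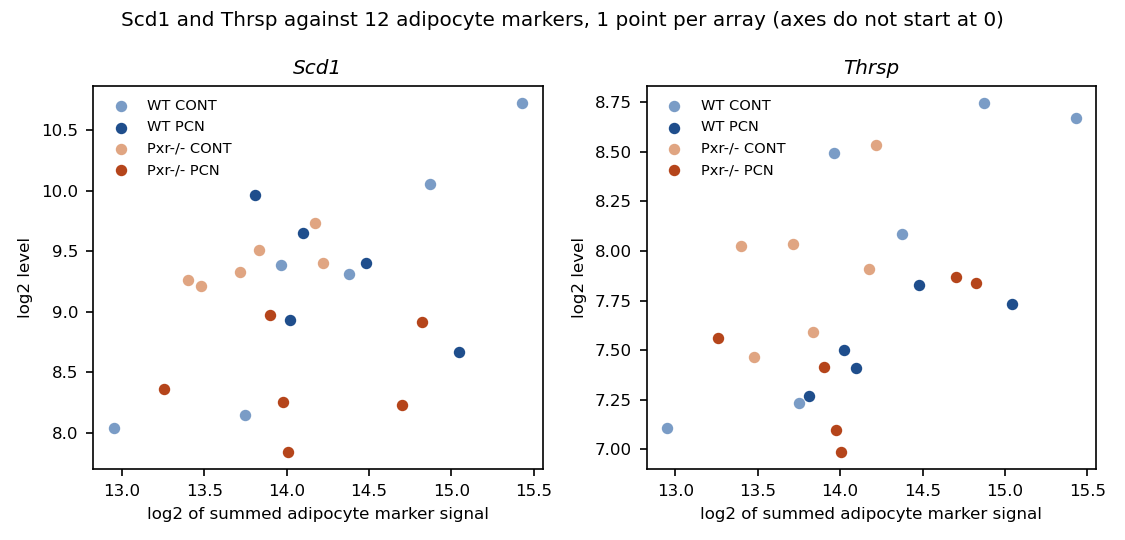
Log2 level of Scd1 and Thrsp against the log2 of the summed signal of 12 adipocyte markers, 1 point per array, coloured by group. The WT controls spread furthest on both axes, with sums from 12.95 to 15.43, and the Pxr-/- PCN points of Scd1 lie below the Pxr-/- CONT points at like sums.

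*Thrsp* itself read 7.11 to 8.74 in WT CONT, 7.27 to 7.83 in WT PCN, 7.47 to 8.53 in Pxr-/- CONT and 6.99 to 7.87 in Pxr-/- PCN. Its log2 change with PCN was -0.51 in WT (SE 0.27, adjusted p 0.481) and -0.46 in Pxr-/- (SE 0.26, adjusted p 0.323), and -0.38 and -0.29 on its second probe. All 5 and all 6 PCN mice lay below the mean of their controls, and the groups overlapped. The interaction was 0.05 (95% confidence interval -0.72 to 0.81), which leaves room for a difference in either direction.

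*Me1*, the cytosolic malic enzyme that makes NADPH, had the opposite sign to most of the list in Pxr-/-. In WT it read 10.22 ± 0.55 (SD, n = 6) with oil and 10.30 ± 0.29 (SD, n = 5) with PCN, and in Pxr-/- 10.46 ± 0.46 (SD, n = 6) with oil and 10.87 ± 0.69 (SD, n = 6) with PCN. The log2 change was 0.09 in WT (SE 0.30, adjusted p 0.957) and 0.41 in Pxr-/- (SE 0.28, adjusted p 0.452), and 0.13 and 0.43 on the second probe. The differences were within the spread of the mice. *Me1* was the only one of the 10 genes whose mean under PCN was higher in Pxr-/- than in WT (0.57, SE 0.30, adjusted p 0.770).

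Of the regulators, *Srebf1* showed the smallest PCN effects of the list in both genotypes. It read 12.45 to 12.68 in WT CONT, 12.38 to 12.76 in WT PCN, 12.30 to 12.66 in Pxr-/- CONT and 12.31 to 12.59 in Pxr-/- PCN. Its log2 change was 0.01 in WT (95% confidence interval -0.16 to 0.18, adjusted p 0.984) and -0.06 in Pxr-/- (-0.22 to 0.11, adjusted p 0.735). These intervals leave out changes of 1.5-fold. The level of the *Srebf1* mRNA does not show how much of its protein is processed to the active form.

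*Pparg* encodes a nuclear receptor known for driving fat cell differentiation and lipid storage. It read 10.15 to 10.64 in WT CONT (median 10.49), and 11.11, 11.44, 10.83, 11.58 and 10.70 in the 5 WT PCN mice. In Pxr-/- CONT it read 9.84 to 10.84 (median 10.26), and in Pxr-/- PCN 10.24 to 10.86 (median 10.66). The 5 WT PCN mice were all above the WT controls, and the Pxr-/- groups overlapped. Such a separation of the WT groups was found for 2.7% of all probes. PCN raised *Pparg* in WT 1.62-fold (log2 change 0.70, SE 0.17, adjusted p 0.0389), the call counted above for WT. In Pxr-/- the change was 0.28 (SE 0.16, adjusted p 0.352), in the same direction, and the interaction was -0.42 (SE 0.23, adjusted p 1.00), so that a difference between the genotypes was not shown. Within wash batches 1 and 2 the change in WT was 0.91 and 0.51.

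The call of *Pparg* in WT was lost without WT CONT replicates 1, 3, 5 or 6 or WT PCN replicates 1, 2 or 4, with adjusted p up to 0.134 and changes of 0.58 to 0.71. It held in 8 of 16 other settings, and was lost with the slide as a fixed block (adjusted p 0.0866), the processed signal (0.0508), centring on the array median (0.0608), no filter on dim probes (0.0615), the replicate block (0.0651), the WT groups alone (0.0726) and within either wash batch. WT PCN replicate 4 had the highest *Pparg* (11.58) and the highest adipocyte sum of its group (15.04), whereas replicate 2 had the second highest *Pparg* (11.44) and the lowest sum (13.81). A second *Pparg* probe, for another transcript, was well above background on 1 of 23 arrays.

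**Figure D4:**
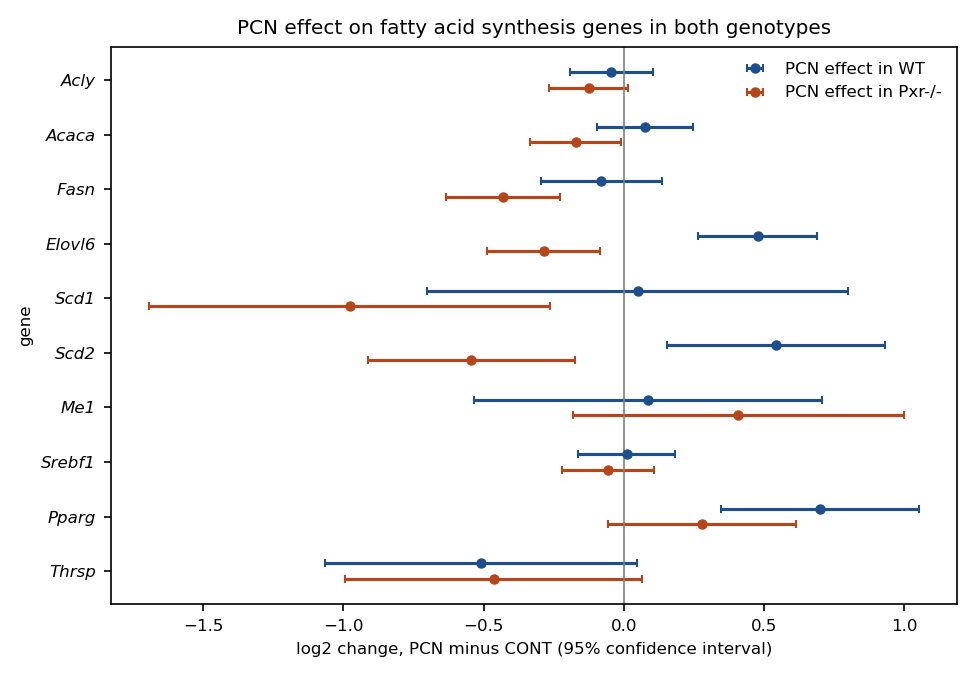
Log2 change with PCN (PCN minus CONT) of each of the 10 genes in WT and in Pxr-/-, with 95% confidence intervals. The intervals of Elovl6 and Scd2 lie above 0 in WT and below 0 in Pxr-/-, while those of Srebf1 straddle 0 in both.

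Opposite directions of the PCN effect were looked for in all 10 genes. For 5 of them, *Acaca*, *Elovl6*, *Scd1*, *Scd2* and *Srebf1*, the value was higher with PCN in WT and lower with PCN in Pxr-/-, as it was for 15.7% of all probes. The values of *Scd1* (0.05) and *Srebf1* (0.01) in WT changed sign under some alternatives, and that of *Acaca* (0.08) with the mean of its probes. In *Elovl6* and *Scd2* the unadjusted limma p was at most 0.05 in both genotypes, a pattern shared by 23 of all probes (0.0619%). *Acly*, *Fasn* and *Thrsp* were lower with PCN in both genotypes, and *Me1* and *Pparg* higher in both. The interaction was negative for 8 of the 10 genes and for 49.9% of all probes, with a median of -0.30 against 0.00 over all probes.

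Between the genotypes without PCN, 0 of the 10 genes were called, against 0.148% of all probes, and 1, *Scd2*, had an unadjusted limma p of at most 0.05 (9.03% of all probes). The median difference was 0.07. Under PCN, 9 of the 10 genes had a lower mean in Pxr-/- than in WT (49.1% of all probes), with a median of -0.25, and 5 had an unadjusted limma p of at most 0.05 in that direction (3.6% of all probes). These were *Elovl6* (-0.70), *Scd1* (-0.90), *Scd2* (-0.63), *Pparg* (-0.52) and *Fasn* (-0.33). The ranges of the genotypes did not overlap for *Elovl6* alone among the 10 genes, against 1.11% of all probes. This comparison shares its WT PCN and Pxr-/- PCN mice with the PCN effects above.

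Of the genes that supply acetyl-CoA and NADPH, 0 of 9 passed the test in WT (1.31% of all probes) and 1 in Pxr-/- (3.7% of all probes). That gene was *Aacs*, acetoacetyl-CoA synthetase, which fell by 0.54 on the log2 scale in Pxr-/- (SE 0.13, adjusted p 0.0264), against 0.07 in WT (adjusted p 0.915). The list of the other elongases and desaturases also held *Acacb*, *Mid1ip1*, *Hsd17b12*, *Hacd3* and *Tecr*. Of its 15 measured genes, 0 passed in WT (1.31% of all probes) and 0 in Pxr-/- (3.7%). By unadjusted limma p of at most 0.05 there were 1 in WT and 2 in Pxr-/-, all lower. At that p, 5.99% of all probes were lower in WT and 10.7% in Pxr-/-. *Elovl7*, an elongase, differed by -0.24 in WT (adjusted p 0.0959) and by -0.23 in Pxr-/- (adjusted p 0.0515). *Hsd17b12*, the ketoacyl reductase of elongation, differed by -0.11 (adjusted p 0.705) and -0.26 (adjusted p 0.0995). Both carried the same sign in the 2 genotypes. Of the 15 genes, 5 were higher with PCN in WT and lower in Pxr-/-, against 15.7% of all probes. Among these 5 was the elongase *Elovl1*, named after its values were seen, with 0.21 in WT (adjusted p 0.623), -0.20 in Pxr-/- (adjusted p 0.434) and an interaction of -0.41 (unadjusted limma p 0.0493, adjusted p 1.00).

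Of 10 genes of triglyceride assembly, 0 passed in WT (1.31% of all probes) and 1 in Pxr-/- (3.7%), *Plin2*, a coat protein of lipid droplets, which rose there by 0.39 (SE 0.11, adjusted p 0.0466) and differed by 0.09 in WT (adjusted p 0.844). Of 15 regulators, 0 passed in WT and 3 in Pxr-/-, against the same shares of all probes. *Insig2*, which holds SREBP in the endoplasmic reticulum, fell there by 0.47 (SE 0.13, adjusted p 0.0401), and *Ppargc1b*, a coactivator of lipogenic transcription, fell by 0.46 (SE 0.11, adjusted p 0.0225). *Thrb*, a thyroid hormone receptor, rose by 0.48 (SE 0.11, adjusted p 0.0161). In WT their values were -0.10, -0.34 and 0.32, each with the same sign as in Pxr-/-. Of the 15 regulators, 4 were higher with PCN in WT and lower in Pxr-/-, against 15.7% of all probes.

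The SREBP-2 targets of cholesterol synthesis and uptake had the directions of *Elovl6* and *Scd2* in 9 of 12 genes, against 15.7% of all probes. With PCN, 11 of 12 were higher in WT (45.1% of all probes), with a median of 0.18, and 1 passed the test (1.31%). In Pxr-/-, 10 of 12 were lower (53% of all probes), with a median of -0.44, and 6 passed the test (3.7%). *Idi1*, an isomerase of the mevalonate pathway, fell there by 0.61 (SE 0.13, adjusted p 0.0132), and *Mvd*, mevalonate decarboxylase, by 0.58 (SE 0.16, adjusted p 0.0427). *Hmgcs1*, HMG-CoA synthase, fell by 0.41 (SE 0.10, adjusted p 0.0258), and *Fdps*, farnesyl diphosphate synthase, by 0.48 (SE 0.12, adjusted p 0.0306). None of the 12 had an interaction that passed, as 0.0834% of all probes did, and 10 had an unadjusted limma p of at most 0.05, all negative (2.27% of all probes).

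**Figure D5:**
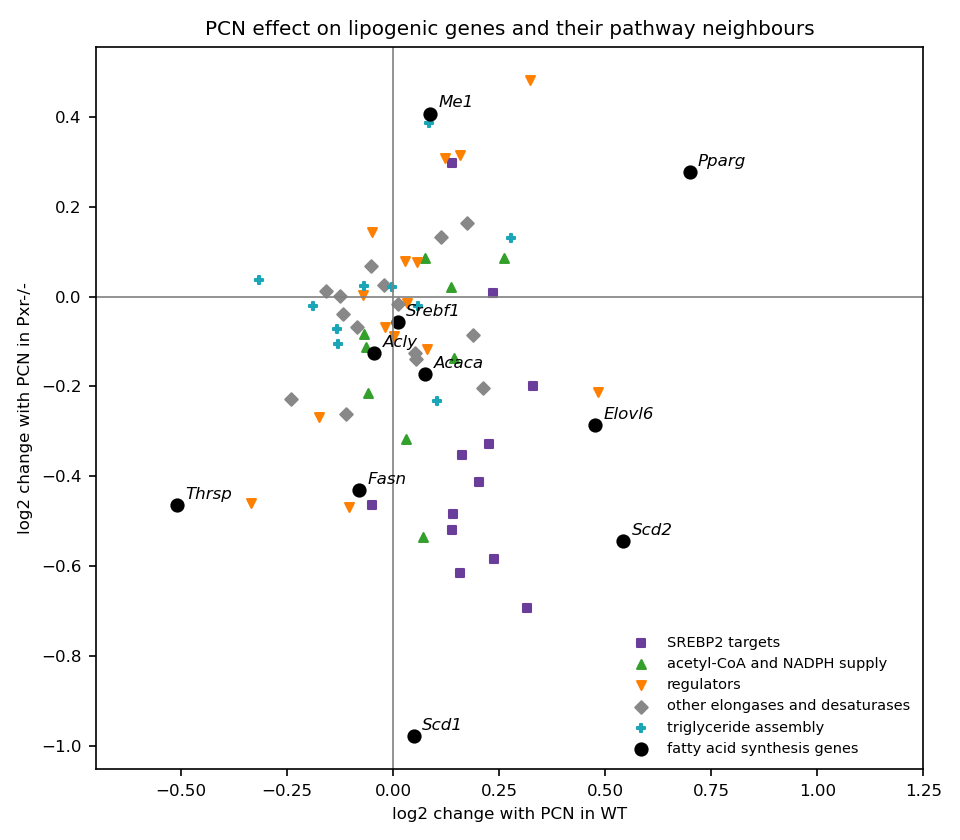
Log2 change with PCN in WT (horizontal) and in Pxr-/- (vertical) of the 10 genes, labelled, and of 5 lists of related genes, 1 point per gene. Elovl6 and Scd2 lie to the lower right with the SREBP2 targets, 11 of 12 of which lie right of 0 and 10 of 12 below it.

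For the genes with the leading changes, those whose values over the 23 arrays were most like them were sought among 17573 other genes. Likeness was the root mean square difference of values centred on their mean, divided by the SD of the gene in question, so that 0 is identity. Among the nearest to *Scd2* were *Mvd* (0.49), *Aacs* (0.56), *Cyp51* (0.60) and *Fdft1* (0.60), and *Fasn* came 24th (0.80). The 5 nearest to *Elovl6* were *Msmo1* (0.64), *Etnk1* (0.66), *Trim36* (0.69), *Cyp51* (0.69) and *Gpt* (0.71). These 2 genes were added to the search after their values were seen. The nearest to *Scd1* was *Thrsp* (0.76), followed by *Naaladl1*, *Tmem86b*, *Pfkfb4* and *Orm1* (0.76 to 0.78). *Pparg* was nearest to *Gstm2* (0.52), *Tpbg*, *Rbbp8*, *Akr1c13* and *Ugt1a6b* (up to 0.65), and *Fasn* to *Fam163b* (0.57), *Ufm1*, *Gm6637*, *Stip1* and *Bop1* (up to 0.63). The arrays share treatment, genotype and normalization, and these are descriptions with no test.

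Single mice stood out across several of the 10 genes. WT PCN replicate 3 was the highest of its group in 6 of them and WT PCN replicate 4 the lowest in 5, while WT CONT replicate 4 was the lowest of its group in 7. Without WT PCN replicate 3 the change of *Scd2* in WT was 0.39 (adjusted p 0.416), and without WT PCN replicate 4 it was 0.70. Among the other cell types looked at, the log2 sum of 7 smooth muscle markers had a median of 17.56 in WT CONT, 17.95 in WT PCN, 17.69 in Pxr-/- CONT and 18.08 in Pxr-/- PCN. That of 6 fibroblast markers was 15.56, 15.73, 15.72 and 16.01 in the same order, and that of 6 cycling-cell markers 13.83, 13.73, 14.12 and 13.74. Of these, 0 smooth muscle and 1 fibroblast markers were called higher with PCN in WT (0.692% of all probes were called), 2 and 3 in Pxr-/- (0.947%), and 0 cycling-cell markers in either. All 6 cycling-cell markers were lower with PCN in both genotypes, with a median change of -0.21 in WT and -0.39 in Pxr-/-. At an unadjusted limma p of at most 0.05, 1 was lower in WT (5.99% of all probes) and 5 in Pxr-/- (10.7%). The part of these 3 cell types in the lipogenic values was not tested.

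Some neutrophil markers rose with PCN in both genotypes. Of 6, 2 were called higher in WT (0.692% of all probes were called) and 3 in Pxr-/- (0.947%). *Csf3r* was not among them, with means of 15.40 in WT CONT, 15.43 in WT PCN, 15.46 in Pxr-/- CONT and 15.40 in Pxr-/- PCN. *S100a9*, a calcium-binding protein abundant in neutrophils, had a mean of 7.41 in WT CONT, 9.56 in WT PCN, 7.64 in Pxr-/- CONT and 10.55 in Pxr-/- PCN on the log2 scale. It rose by 2.16 in WT (adjusted p 0.0162) and by 2.90 in Pxr-/- (adjusted p 0.00108). The log2 sum of the 6 markers was 15.23 to 15.61 in WT CONT, 15.33 to 15.71 in WT PCN, 15.15 to 15.64 in Pxr-/- CONT and 15.41 to 15.64 in Pxr-/- PCN. These sums overlapped, and the marker *Csf3r* (mean 15.42) made up most of them. Of 6 macrophage markers, 0 passed the test in WT (1.31% of all probes) and 2 in Pxr-/- (3.7%). These 2 were *Cd68* (0.60, adjusted p 0.00695), which was called (0.947% of all probes were), and *Csf1r* (0.31, adjusted p 0.0269). The log2 sum of the 6 macrophage markers was 15.83 to 16.57 in WT CONT and 15.83 to 16.70 in WT PCN. It was 15.08 to 16.50 in Pxr-/- CONT and 15.85 to 16.50 in Pxr-/- PCN. The marker *Lyz2* (mean 15.95) made up most of these sums. With PCN, 5 of the 6 macrophage markers were higher in WT (45.1% of all probes) and 6 in Pxr-/- (47.0%). The part of these cell types in the lipogenic values was not tested.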

How the data were processed

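Ileum RNA (150 ng per mouse) was labelled with Cy3 and hybridized to single-colour arrays, read with Agilent Feature Extraction 10.10.1.1 (the submitters' processing notes). The scanner values deposited by the authors are intensity per spot on a linear scale. The authors also deposited a table with 37161 probes on the log2 scale: per the study's methods the median signal was filtered, put on the log2 scale, corrected for wash batch and normalized by CrossNorm. When checked, its columns shared 1 set of values and had a Spearman correlation of 0.9995 to 0.9997, across probes, with the log2 median signal.

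The table was fitted in limma 3.58.1 (R 4.3.3; data.table package, version 1.17.8) over all 23 arrays, with terms for group (4) and wash batch (18 residual degrees of freedom), with moderated 2-sided tests and Benjamini-Hochberg adjustment over all probes of a contrast. Probes with an adjusted p up to 0.05 passed, and those of more than 1.5-fold besides were called. The number of arrays limits the precision. Samples were grouped by their labels, and mice are the replicates. Replicate numbers are not stated to pair mice across groups. Over 33 pairs with the same number the correlation of deviations had a median of -0.04 (from -0.20 to 0.42), which cannot show whether mice were matched. The scripts were tested on simulated data. Intensities served for the alternatives: the median signal with quantile normalization, the processed signal minus the 75th percentile, normexp with an offset of 50, and others given with their effects. The 3 probes outside the table were not tested.

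The 10 genes and the lists were chosen with earlier results of these data known. All 10 genes are named, as are genes of related lists with an adjusted p of at most 0.05 for any contrast, up to 5 per list by size of change, or else the 2 with the largest change, and 3 PXR targets, except for genes that are not reported here. Probes were matched to symbols, and promoters to RefSeq on GRCm38.p6, which is not the build of the probe positions (mm9). Cell type markers were summed on the linear scale.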

Additional observations from a re-analysis of the deposited data

Results flagged for a closer look

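The PCN effect on *Elovl6* in Pxr-/- minus that in WT was -0.76 on the log2 scale (adjusted p 0.0336), listed because this difference passed its own test. For *Scd2* the same difference was -1.09, listed because all 5 WT PCN mice lay above the WT control mean, 1 of them level with it to 2 decimals (13.39), and all 6 Pxr-/- PCN mice below theirs. Its own test did not pass over all probes (adjusted p 0.196). A single mouse stood apart in 2 of the 40 sets of 1 gene in 1 group, where chance gives about 1 in 20. *Acly* in WT PCN read 12.87 in replicate 3, against 12.64 in the next mouse, a gap of 0.768 of the range. *Scd2* in Pxr-/- PCN read 13.70 in replicate 5, against 13.32 in the next, a gap of 0.675 of the range.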

How the results depend on the processing

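Of 790 values of single genes under 16 other processing settings, 751 kept their direction and call, 22 changed sign, 14 lost a call and 3 gained one, and of 1150 values with 1 array left out, 1097 kept both. No value that changed sign had an effect above 0.25 on the log2 scale in the fit of the table. The call of *Elovl6* under PCN between genotypes held in every fit of both wash batches and was lost within a single batch (0 genes called in batch 1 and in batch 2). With scanner values, *Elovl6* passed in WT under each scaling. For PCN in WT the genes called fell from 1 to 0 (*Pparg*) with the processed signal (adjusted p 0.0508), centring on the array median (0.0608), no filter on dim probes (0.0615), the slide as a fixed block (0.0866), the replicate block (0.0651), the WT groups alone (0.0726) and within wash batch 1 or 2, and rose to 2 with no fold threshold. For PCN in Pxr-/- they rose from 0 to 1 with no fold threshold (*Fasn*) and with the Pxr-/- groups alone (*Scd1*). For the interaction they fell from 1 to 0 (*Elovl6*) with no filter on dim probes (adjusted p 0.0597), with the replicate block (0.121) and within wash batch 1 or 2. In other settings the cause of these losses was not tested, whereas within a wash batch fewer arrays enter.

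The replicate block, although the numbers are not stated to pair the mice, gave *Elovl6* 0.46 in WT (adjusted p 0.0551) and an interaction of -0.74. It changed no other call of the 10 genes than these of *Elovl6* and *Pparg*. The sign changed for *Srebf1* in WT with centring (-0.018), the slide as a fixed block (-0.017), the replicate block (-0.0050) and wash batch 1 (-0.023), and in Pxr-/- in wash batch 2 (0.026). It changed for *Acaca* in WT with the mean over its probes (-0.0042), and in wash batch 1 for *Acly* (0.060) and *Scd1* (-0.49) in WT. The interaction of *Thrsp* changed with the slide as a fixed block (-0.0091), the replicate block (-0.032) and wash batch 2 (-0.043), and that of *Acly* in wash batch 2 (0.090). Between genotypes without PCN it changed for *Scd1* with the slide as a fixed block (-0.024) and in wash batch 1 (-0.14), for *Fasn* (-0.023), *Me1* (-0.060) and *Pparg* (0.13) in wash batch 1, and for *Acly* (-0.00059) and *Thrsp* (0.12) in wash batch 2. Under PCN it changed for *Acly* with the slide as a fixed block (0.037) and in wash batch 2 (0.089), and for *Thrsp* in wash batch 2 (0.072).

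With 1 array left out, the genes called ranged from 0 to 1 for PCN in either genotype and from 0 to 2 for the interaction, and the median for PCN in WT from -0.02 to 0.15. The values that crossed 0 ranged from -0.23 to 0.34 (*Scd1*), -0.052 to 0.22 (*Me1*) and -0.043 to 0.056 (*Srebf1*) for PCN in WT, and from -0.10 to 0.26 (*Thrsp*) for the interaction. Without PCN they ranged between genotypes from -0.013 to 0.064 (*Fasn*), -0.20 to 0.012 (*Pparg*), -0.13 to 0.44 (*Scd1*) and -0.33 to 0.019 (*Thrsp*), and under PCN from -0.034 to 0.048 (*Acly*) and -0.17 to 0.0076 (*Thrsp*).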
